A study of Homo sapiens with 6 samples.

Results

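The 9 genes of MHC class I antigen presentation described here were followed through an RNA interference experiment in an oesophageal squamous carcinoma line. They were taken by gene name from the deposited expression table, on its primary chromosomes, and all 9 were found among the 58735 genes listed. The group holds the heavy chain genes HLA-B, HLA-C, HLA-E and HLA-F, the light chain gene B2M, the peptide transporter genes TAP1 and TAP2, and the immunoproteasome genes PSMB8 and PSMB9. The cells were KYSE30, an established human line that the labels place in the oesophagus. They had received si-RAB23-1 or si-RAB23-9, a pair of siRNAs against the small GTPase RAB23, or the control siRNA si-NC. Every group therefore carried an siRNA, at 100 nM and with the same lipid reagent (HiPerFect), and total RNA was taken at about 80% confluence. Each group had 2 libraries, and no untransfected cells are among the samples used here. No source used here gives the time after transfection or the siRNA sequences, or says whether the libraries of a group came from separate cultures. P-values therefore rest on the scatter of 2 libraries per group, some of which may be technical. KYSE30 is a single line, and every sample came from it.

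Class I molecules show fragments of a cell's own proteins to cytotoxic T cells and natural killer cells. The proteasome cuts proteins into peptides, and its interferon-inducible subunits, among them PSMB8 and PSMB9, take the place of constitutive ones to form the immunoproteasome. The TAP1 and TAP2 proteins pair into a pump that carries peptides into the endoplasmic reticulum, where a heavy chain bound to beta-2-microglobulin, the product of B2M, receives them. Interferon, NF-kappaB and the activator NLRC5 are known to raise transcription of many of these genes, and tumours can lose class I from their surface by lowering any step.

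The values are FPKM, fragments per kilobase of gene length and per fixed number of fragments, which allow levels of genes of unlike length to be set side by side. Between 17211025 and 24178125 whole reads per library were recovered from the FPKM and the gene lengths, and all 9 genes passed the filter that left 14352 genes for testing (a minimum of 1 FPKM in 2 or more libraries). RAB23 itself had 1.03 and 1.10 FPKM with si-RAB23-1, 1.18 and 1.27 FPKM with si-RAB23-9, and 3.27 and 3.33 FPKM with si-NC, so the targeted transcript was lower with both siRNAs. Of 8 squamous epithelial markers 7 reached 1 FPKM, with KRT5, a basal keratin, at no more than 0.272 FPKM. Their summed level was 263 to 270 FPKM with si-RAB23-1, 278 FPKM in both si-RAB23-9 libraries and 230 to 235 FPKM with si-NC. EPCAM and CDH1 made up most of it, with si-NC means of 84.9 and 86.7 FPKM. The largest difference in FPKM from si-NC was that of SOX2, which averaged 62.7 with si-RAB23-1, 64.0 with si-RAB23-9 and 38.2 with si-NC. CDH1 averaged 82.5 FPKM with si-RAB23-1 and 95.3 FPKM with si-RAB23-9. The keratins KRT14, KRT17 and KRT6A were low, with si-NC means of 2.19, 2.37 and 3.99 FPKM. TP63, a squamous lineage factor, did not follow the sum, with 19.7 and 19.1 FPKM with si-RAB23-1, 12.0 and 11.4 FPKM with si-RAB23-9, and 14.2 and 14.6 FPKM with si-NC. None of 7 leukocyte markers reached 1 FPKM, and their summed level was 0.981 to 1.09 FPKM with si-RAB23-1, 0.674 to 0.860 FPKM with si-RAB23-9 and 0.923 to 1.01 FPKM with si-NC. Of 6 fibroblast markers only COL1A1, a fibrillar collagen, reached 1 FPKM, and the list summed to 3.44 to 3.53 FPKM with si-RAB23-1, 3.69 to 3.92 FPKM with si-RAB23-9 and 3.45 to 3.47 FPKM with si-NC, with COL1A2, DCN and LUM listed at 0 throughout. Of 4 endothelial markers only CDH5, a junctional cadherin, did so. CDH5 had 1.49 and 1.97 FPKM with si-RAB23-1, 2.65 and 3.07 FPKM with si-RAB23-9, and 3.65 and 3.60 FPKM with si-NC. The list summed to 1.62 to 2.09 FPKM with si-RAB23-1, 2.73 to 3.16 FPKM with si-RAB23-9 and 3.77 to 3.79 FPKM with si-NC, with KDR listed at 0. The part of these markers in the results was not tested. Differences below are of log2(FPKM + 1), a scale that understates changes of low genes, and were tested two-sided with limma. A gene was called when its p, adjusted by Benjamini-Hochberg over all 14352 genes, was under 0.05. In bulk RNA, fewer cells that express a gene and less of its RNA per cell cannot be told apart.

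On GRCh38, with coordinates as the table gives them, 8 of the 9 genes lie in the major histocompatibility complex on chromosome 6. HLA-F spans 29722775 to 29738528 (plus strand), HLA-E 30489467 to 30494205 (plus), HLA-C 31268749 to 31272130 (minus) and HLA-B 31269491 to 31357188 (minus). TAP2 (32821833 to 32838780, minus), PSMB8 (32840717 to 32844703, minus), TAP1 (32845209 to 32853978, minus) and PSMB9 (32844136 to 32859585, plus) lie together at the other end of the interval. The PSMB9 model spans that of TAP1 and overlaps that of PSMB8, and the models of HLA-B and HLA-C overlap too. B2M is alone on chromosome 15, from 44711487 to 44718877 on the plus strand. These are whole gene models, introns and untranslated regions included, and the values count reads over the exons of each.

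The level of the group was led by surface chain genes. In the si-NC libraries HLA-E, which presents leader peptides of other class I chains to natural killer cell receptors, averaged 88.1 ± 3.53 FPKM (SD, n = 2), above 97.3% of the genes tested. HLA-C, a classical heavy chain that is also a ligand of killer cell immunoglobulin-like receptors, averaged 73.7 ± 3.99 FPKM, and B2M averaged 67.6 ± 2.21 FPKM. HLA-B, the most polymorphic classical chain, followed at 34.1 ± 0.731 FPKM. The genes of peptide supply stood lower. TAP1 averaged 7.53 ± 0.329 FPKM, TAP2 4.66 ± 0.393 FPKM, PSMB9 4.62 ± 0.738 FPKM and PSMB8 3.89 ± 0.222 FPKM, and HLA-F, a non-classical chain with restricted surface expression, was lowest at 2.44 ± 0.0991 FPKM. TAP2 and PSMB9 overlapped in their si-NC values, while the other neighbours in this order did not. The depth differed accordingly, with 4945 to 10042 reads per library for B2M and 153 to 260 for HLA-F.

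**Figure D1:**
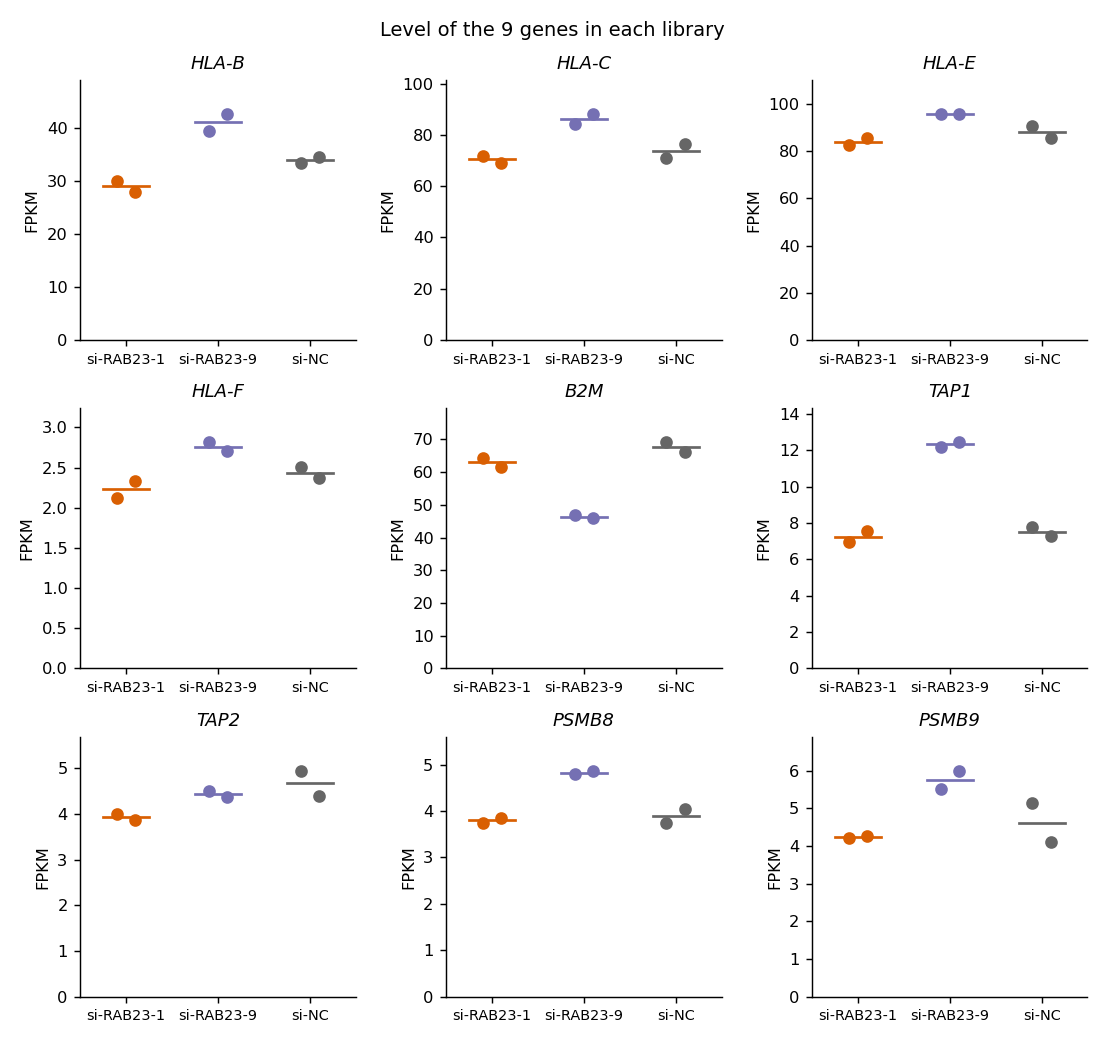
FPKM of each of the 9 genes (vertical axes, each from 0) in the 2 libraries (points) of si-RAB23-1, si-RAB23-9 and si-NC, with group means as lines. With si-RAB23-9, both libraries of TAP1 sit at 12.2 and 12.5 FPKM above all others and both of B2M at 46.8 and 45.8 FPKM below all others.

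With si-RAB23-9 the members moved in opposite directions, while with si-RAB23-1 none was called. Under si-RAB23-9, TAP1 was 1.64 times its si-NC mean, HLA-B, HLA-C and PSMB8 also rose, by smaller steps, and B2M fell to 0.685 of its si-NC mean. HLA-E, HLA-F, TAP2 and PSMB9 were not called. The 4 higher calls among 9 genes stand beside 7.56% of all tested genes called higher in that comparison, and the 1 lower call beside 5.69% called lower. The median log2 fold change of the 9 genes was 0.23, against 0.00599 over all genes tested.

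TAP1, the gene for the first half-transporter of the peptide pump, had 12.2 and 12.5 FPKM with si-RAB23-9, against 7.76 and 7.29 FPKM with si-NC. The groups did not overlap, and the log2 fold change was 0.64 ± 0.056 (SE, limma adjusted p = 0.00392). TAP2, its partner in the pump, had 4.50 and 4.37 FPKM with si-RAB23-9, against 4.94 and 4.39 FPKM with si-NC. Here the groups overlapped, and the difference of -0.06 (95% interval -0.22 to 0.10) was not called (limma adjusted p = 0.603). The ratio of TAP1 to TAP2 FPKM accordingly came to 2.71 and 2.85 with si-RAB23-9, against 1.57 and 1.66 with si-NC. TAP2 shares 32.3% of its exon bases with an overlapping gene model, AL669918.1, to which at most 1 read per library was assigned, and reads in the shared stretch could have been assigned otherwise or left out.

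B2M, whose product class I heavy chains generally need to reach the surface, had 46.8 and 45.8 FPKM with si-RAB23-9, against 69.2 and 66.1 FPKM with si-NC. Both si-RAB23-9 libraries lay below every other library, and the log2 fold change was -0.54 ± 0.040 (SE, limma adjusted p = 0.00285). Counted from the lowest fold change, it ranked 319 among the 14352 genes in this comparison. No stretch of 50 bases of its annotated transcripts is shared with another annotated gene. The calls for TAP1 and B2M held in each of 15 alternative fits, the 6 that leave out 1 library included, where the adjusted p reached at most 0.0454 for TAP1 and 0.0370 for B2M.

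Among the heavy chains, HLA-B had 39.6 and 42.8 FPKM with si-RAB23-9, against 33.5 and 34.6 FPKM with si-NC (log2 fold change 0.27, limma adjusted p = 0.0343). HLA-C had 84.3 and 88.3 FPKM with si-RAB23-9, against 70.9 and 76.5 FPKM with si-NC (0.23, limma adjusted p = 0.0401). Neither pair of groups overlapped. HLA-E had 95.9 and 95.7 FPKM with si-RAB23-9, against 90.6 and 85.6 FPKM with si-NC, and HLA-F had 2.82 and 2.70 FPKM, against 2.51 and 2.37 FPKM with si-NC. In these too the si-RAB23-9 libraries were both above the si-NC libraries, but the differences of 0.12 (95% interval 0.02 to 0.22, limma adjusted p = 0.103) and 0.13 (-0.05 to 0.30, limma adjusted p = 0.293) were not called.

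PSMB8, the immunoproteasome subunit that replaces PSMB5 and has chymotrypsin-like activity, had 4.79 and 4.87 FPKM with si-RAB23-9, against 3.73 and 4.05 FPKM with si-NC (0.25, limma adjusted p = 0.0387). PSMB9, which replaces PSMB6, had 5.51 and 6.0 FPKM with si-RAB23-9, against 5.14 and 4.10 FPKM with si-NC. The PSMB9 groups did not overlap, yet the si-NC libraries lay far apart and the difference of 0.27 (95% interval 0.03 to 0.51) was not called (limma adjusted p = 0.127). Unlike those of TAP1 and B2M, the calls for HLA-B, HLA-C and PSMB8 were lost when either si-NC library or either si-RAB23-9 library was left out, with limma adjusted p of 0.0748 to 0.165 for HLA-B, 0.0770 to 0.194 for HLA-C and 0.10 to 0.178 for PSMB8. The call for PSMB8 also missed the threshold without si-RAB23-1 replicate 1 (0.0521) and replicate 2 (0.0526).

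With si-RAB23-1 all 9 fold changes were below 0, and none passed the test. Their median was -0.09, against 0.00833 over all genes, where 8.13% were called higher and 7.26% lower. HLA-B was nearest to the threshold. It had 30.1 and 28.0 FPKM with si-RAB23-1, against 33.5 and 34.6 FPKM with si-NC, so the groups did not overlap, and the log2 fold change was -0.22 (95% interval -0.36 to -0.09, limma adjusted p = 0.0501). TAP2 had 3.99 and 3.86 FPKM with si-RAB23-1, against 4.94 and 4.39 FPKM with si-NC (-0.20, limma adjusted p = 0.0950). B2M had 64.3 and 61.6 FPKM with si-RAB23-1, against 69.2 and 66.1 FPKM with si-NC (-0.10, limma adjusted p = 0.148). These 3 genes were the ones with an unadjusted p under 0.05, and voom, a limma model for the recovered reads, called the same 3 lower. TAP1 had 6.93 and 7.56 FPKM with si-RAB23-1, against 7.76 and 7.29 FPKM with si-NC. These groups overlapped, although 1 si-RAB23-1 library lay below both si-NC libraries. The interval of the difference, -0.19 to 0.09, lies below the size of its change with si-RAB23-9. Both comparisons use the same si-NC libraries.

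**Figure D2:**
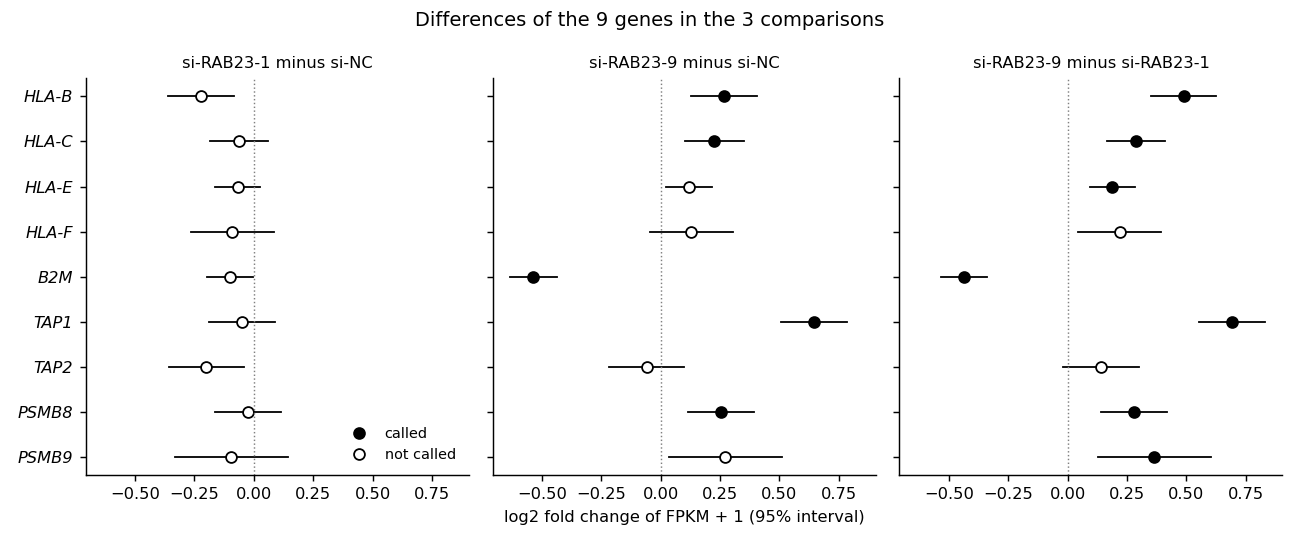
Log2 fold change of FPKM + 1 (horizontal axes) for each of the 9 genes in the 3 comparisons, with the 95% interval of the limma fit as a line, filled where called and open where not. TAP1 lies at 0.64 and B2M at -0.54 for si-RAB23-9 minus si-NC, while all 9 points for si-RAB23-1 minus si-NC are open and lie between -0.22 and -0.03.

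Set against each other, si-RAB23-9 and si-RAB23-1 differed for 7 of the 9 genes. Of these, 6 were higher with si-RAB23-9, and B2M was lower. Over all genes tested 11.1% were called higher and 9.89% lower in this comparison, and the median of the 9 genes was 0.28, against 0.000234. The difference was 0.69 for TAP1 (limma adjusted p = 0.00221), 0.49 for HLA-B (0.00501) and -0.44 for B2M (0.00296). For TAP1 the 2 siRNAs' values do not overlap, with 12.2 and 12.5 FPKM under si-RAB23-9 and 6.93 and 7.56 FPKM under si-RAB23-1. HLA-C (0.29, limma adjusted p = 0.0160), HLA-E (0.19, 0.0250), PSMB8 (0.28, 0.0226) and PSMB9 (0.37, 0.0479) were also called higher. HLA-F (0.22, 95% interval 0.04 to 0.39, limma adjusted p = 0.0807) and TAP2 (0.14, -0.02 to 0.30, 0.177) were not. The calls for TAP1, B2M and HLA-B held without any 1 library. Without si-RAB23-9 replicate 1 or 2, HLA-C, HLA-E, PSMB8 and PSMB9 missed the threshold (limma adjusted p 0.0598 to 0.202). HLA-E, PSMB8 and PSMB9 also missed it without si-RAB23-1 replicate 1 (0.0865 to 0.157), and PSMB8 (0.0508) and PSMB9 (0.114) without si-RAB23-1 replicate 2. RAB23 did not differ between the 2 siRNAs by this test, with a difference of 0.11 (95% interval -0.09 to 0.31, limma adjusted p = 0.383).

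The ratio of heavy chain to B2M FPKM was higher with si-RAB23-9. The FPKM of the 4 heavy chain genes, of which HLA-E and HLA-F were not called, summed to 223 and 229 with si-RAB23-9, against 197 and 199 with si-NC. That sum was 1.14 times its si-NC mean, while B2M stood at 0.685 of its own, so B2M contributed the larger part of the difference in the ratio. Divided by B2M, the sum came to 4.76 and 5.01 with si-RAB23-9, against 2.85 and 3.01 with si-NC, a 1.66 ± 0.0874-fold difference (SD propagated from both groups, n = 2 each). With si-RAB23-1 the ratio was 2.90 and 3.0, within the si-NC range. FPKM divides by the length of all annotated exons joined, 6079 bases for B2M, which is longer than any one of its transcripts, so the ratio can be compared between libraries but is not a ratio of molecules. With 2 libraries in each group no exact permutation test of the ratios can reach 0.05.

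The immunoproteasome subunits were compared with the constitutive ones they replace. PSMB8 stood at 9.42% and 9.67% of PSMB5 FPKM with si-RAB23-9, against 6.80% and 7.29% with si-NC. PSMB9 stood at 6.26% and 6.97% of PSMB6 with si-RAB23-9, against 5.60% and 4.62% with si-NC. The third inducible subunit, PSMB10, did not move that way, and its ratio to PSMB7 was 6.52% and 6.51% with si-RAB23-9, against 7.36% and 7.23% with si-NC. With si-RAB23-1 PSMB8 was at 7.01% and 7.57% of PSMB5 and PSMB9 at 4.81% and 4.76% of PSMB6. Summed over the 3 pairs, the inducible subunits came to 6.98% and 7.26% of the constitutive ones with si-RAB23-9, against 6.69% and 6.43% with si-NC, so that the constitutive subunits made up most of the summed FPKM in every library.

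**Figure D3:**
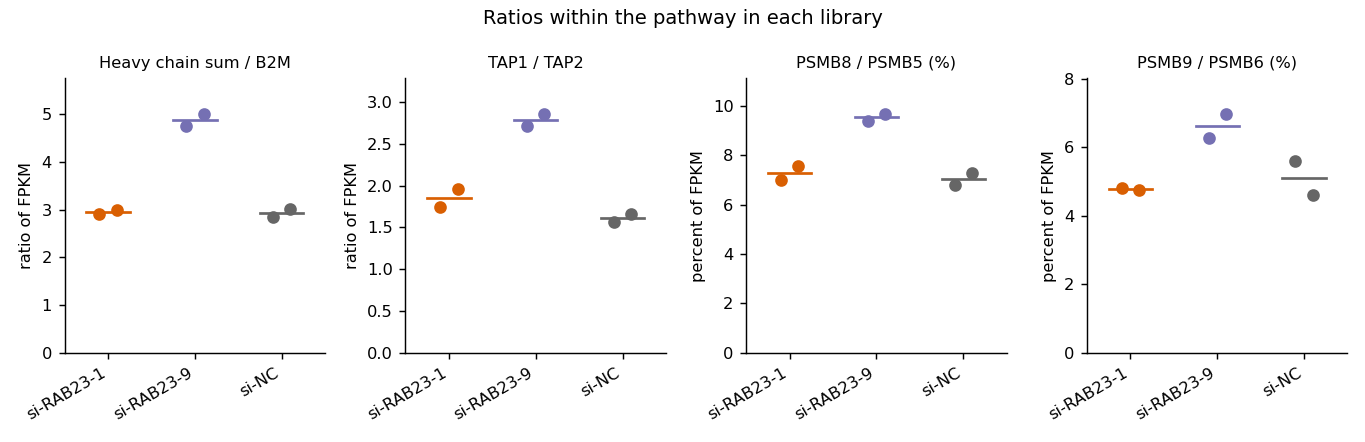
Ratios of FPKM within the pathway in each library (points; lines are group means) for si-RAB23-1, si-RAB23-9 and si-NC: heavy chain sum over B2M, TAP1 over TAP2, and PSMB8 over PSMB5 and PSMB9 over PSMB6 in percent, each axis from 0. Both si-RAB23-9 libraries lie above all others in each panel, at 4.76 and 5.01 for heavy chains over B2M.

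The rest of the pathway was described from lists of genes, read by their counts and medians. Of the other immunoproteasome genes, PSME2, which encodes a subunit of the interferon-inducible proteasome activator, rose with si-RAB23-9. It had 25.3 FPKM in both libraries, against 19.8 and 21.5 FPKM with si-NC (0.28, limma adjusted p = 0.0204). Its partner PSME1 had 42.3 and 45.5 FPKM with si-RAB23-9, against 39.0 and 37.2 FPKM with si-NC (0.20, limma adjusted p = 0.0544). PSMB10 (-0.25, limma adjusted p = 0.321) and the assembly factor POMP (-0.11, 0.220) were not called. None of these 4 was called with si-RAB23-1 by limma or voom, and none had an unadjusted p under 0.05. PSMB10 varied widely there, with 7.43 and 10.6 FPKM. Without si-RAB23-1 replicate 2 PSMB10 was called lower with si-RAB23-1 (-0.42, limma adjusted p = 0.0195), and without either si-RAB23-1 library it was called lower with si-RAB23-9 (-0.25, limma adjusted p 0.0269 and 0.0279). Without either si-NC library or either si-RAB23-9 library, none of the 4 was called with si-RAB23-9.

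None of the 14 constitutive core genes of the proteasome was called in any of the 3 comparisons, and their medians lay at -0.00278 for si-RAB23-1 and -0.04 for si-RAB23-9 against si-NC. Within that list, PSMB5 had a fold change of -0.12 (limma adjusted p = 0.0767), PSMB6 of -0.05 (0.376) and PSMB7 of -0.11 (0.0923) with si-RAB23-9. At an unadjusted p under 0.05 limma had 0 genes for si-RAB23-1, 1 higher and 3 lower for si-RAB23-9, and 3 lower for si-RAB23-9 against si-RAB23-1, and voom called none after adjustment. Without either si-RAB23-1 library, PSMB5 was called lower with si-RAB23-9 (-0.12, limma adjusted p 0.0469 and 0.0465).

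Of 12 peptide loading and trimming genes, 1 was called higher with si-RAB23-9, beside 7.56% of all genes tested. For si-RAB23-1, 3 were called, 1 higher and 2 lower, beside 8.13% and 7.26% of all genes. GANAB, the catalytic subunit of glucosidase II that trims the sugars of new glycoproteins, was called higher with both siRNAs, at 0.54 with si-RAB23-1 (limma adjusted p = 0.00184) and 0.57 with si-RAB23-9 (0.00138). No other gene of the list was called with si-RAB23-9 (limma; voom called 3 higher and 1 lower). With si-RAB23-1 the aminopeptidases LNPEP (-0.33, limma adjusted p = 0.0226) and ERAP1 (-0.23, 0.0360) fell. ERAP1 trims peptides in the endoplasmic reticulum, and LNPEP does so in endosomes. TAPBP, which encodes tapasin, the bridge between TAP and the heavy chain, had 36.7 and 37.7 FPKM with si-RAB23-9, against 32.8 and 33.9 FPKM with si-NC, and was not called (0.15, limma adjusted p = 0.0916). The list median was -0.02 with si-RAB23-1 and 0.01 with si-RAB23-9. For si-RAB23-9 minus si-RAB23-1 it was 0.11, with 9 of the 12 above 0 and 5 higher and 0 lower at an unadjusted p under 0.05, while voom called 6 higher. The 1 call by limma, SEC61A1, a subunit of the translocon (0.12, limma adjusted p = 0.0494), was lost without any 1 library. Between the siRNAs, limma called 11.1% of all genes higher and 9.89% lower. GANAB was called higher with both siRNAs in each of the 6 fits without 1 library, while the lower calls with si-RAB23-1 came to 1 without si-RAB23-9 replicate 2 and to 0 without any other library.

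Among 16 regulators of class I transcription, 2 rose and none fell with si-RAB23-9 by limma, beside 7.56% and 5.69% of all genes tested. At an unadjusted p under 0.05 limma had 1 lower, and voom called 3 higher and 1 lower. NFKB1, a subunit of NF-kappaB (0.24, limma adjusted p = 0.0333), and STAT3, a transcription factor of cytokine signalling (0.23, limma adjusted p = 0.0221), were the 2 that rose. NLRC5, the class I transactivator, was low throughout, at 3.30 and 3.32 FPKM with si-RAB23-9, against 3.14 and 3.07 FPKM with si-NC (0.07, limma adjusted p = 0.463). With si-RAB23-1, RFX5, a subunit of the complex that binds the conserved class I promoter module, had 8.53 and 8.90 FPKM, against 15.5 and 14.4 FPKM with si-NC (-0.72, limma adjusted p = 0.00346). IRF2 also fell (-0.23, limma adjusted p = 0.0280) and STAT3 rose (0.31, 0.00932) with si-RAB23-1. Over all genes tested, 8.13% were called higher and 7.26% lower with that siRNA. In all, 6 of the 16 were higher with si-RAB23-9 than with si-RAB23-1 and none lower, beside 11.1% and 9.89% of all genes tested. The largest difference was that of RFX5 (0.68, limma adjusted p = 0.00245). The calls for RFX5 with si-RAB23-1 and between the siRNAs were kept in all 6 fits without 1 library. STAT3 and NFKB1 were no longer called with si-RAB23-9 without either si-NC or either si-RAB23-9 library. With si-RAB23-1, STAT3 was not called without si-NC replicate 2, and IRF2 was called only without si-RAB23-1 replicate 1. The 6 calls between the siRNAs came to 3 without si-RAB23-1 replicate 2 and to 1 without any other library.

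Interferon-stimulated effector genes, antiviral genes outside antigen presentation, were counted beside the members. Of 31 tested, 26 rose and none fell with si-RAB23-9 by limma, with a median of 0.71, and voom called 27 higher and none lower. IFI27 and IFI44L reached 1 FPKM with si-RAB23-9 alone, so the filter admitted them through the group where they are high. Of the other 29, 24 rose, with a median of 0.69. Between 20 and 26 were called when any 1 library was left out. BST2, an antiviral membrane tether, had 23.4 and 22.4 FPKM with si-RAB23-9, against 6.18 and 5.39 FPKM with si-NC (1.82, limma adjusted p = 0.00143). With si-RAB23-1, 5 rose and 1 fell, with a median of 0.09, and without si-NC replicate 1 or 2 the higher calls came to 1 and 0. The largest change among these was IFITM3, a membrane protein that blocks viral entry, at 0.38 (limma adjusted p = 0.00757), a call lost without either si-NC library. Of 18 interferon and receptor genes 8 were tested, and with si-RAB23-9 the type III interferon IFNL1 (0.72, limma adjusted p = 0.0317) and both chains of the interferon gamma receptor, IFNGR1 (0.28, 0.0250) and IFNGR2 (0.27, 0.0194), rose. IFNL1 passed the filter through the si-RAB23-9 libraries alone, at 1.73 and 1.45 FPKM, against 0.489 and 0.657 FPKM with si-NC. It rested on 28 and 22 reads with si-RAB23-9, against 10 and 11 reads with si-NC, and none of these 3 calls remained without either si-NC or either si-RAB23-9 library. With si-RAB23-1 the receptor chain IFNAR1 (-0.25, limma adjusted p = 0.0305) and the kinase JAK1 (-0.16, 0.0458) fell, but IFNAR1 was called in none of the 6 fits without 1 library and JAK1 in 1. The part of these genes in the members' changes was not tested.

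**Figure D4:**
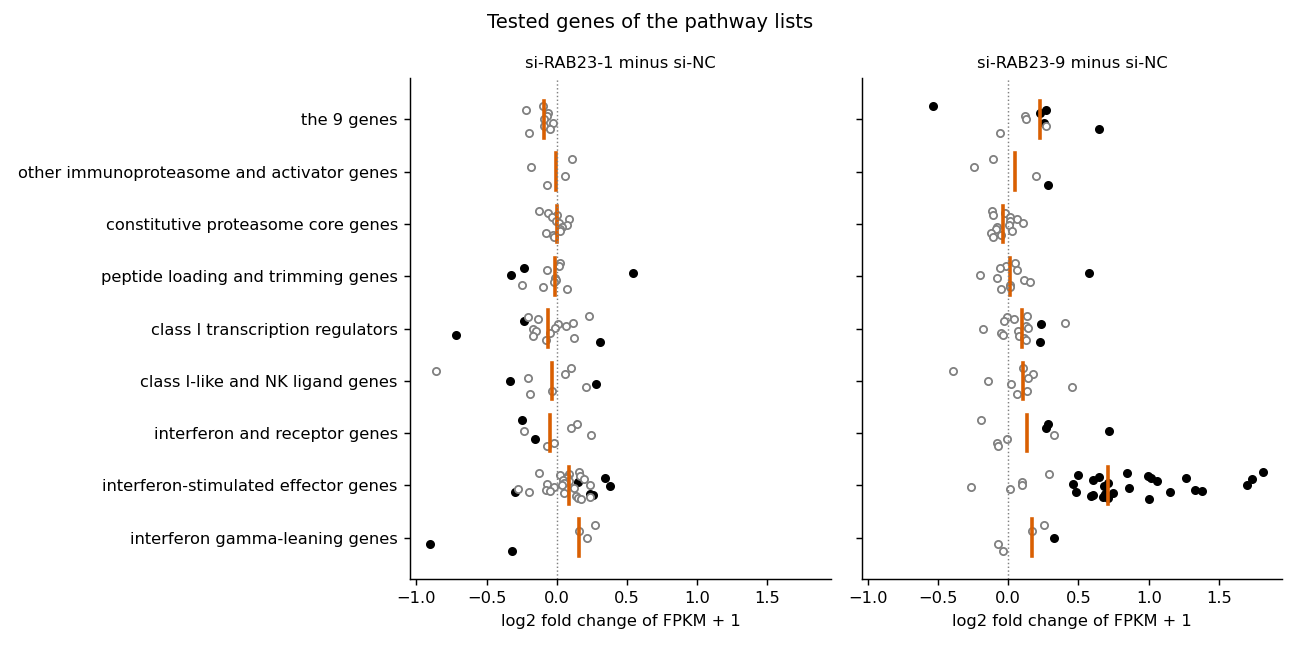
Log2 fold change of FPKM + 1 (horizontal axes) of the tested genes of each list, for si-RAB23-1 (left) and si-RAB23-9 (right), each minus si-NC, with filled points for called genes, open points for genes not called and bars for list medians. The interferon-stimulated effector genes centre on 0.71 with si-RAB23-9 and 0.09 with si-RAB23-1, and the constitutive proteasome core holds no filled point.

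The promoters show which known control motifs lie before the genes that moved. RefSeq promoters of GRCh38.p14 were found for 8 of the 9 genes, in 10 windows, and the 250 bases before each annotated start were searched on both strands. HLA-E had no promoter entry and was not searched. The core of the interferon response element, GAAANNGAAA, was found in TAP1, B2M, TAP2 and HLA-F, against 3.02% of all 35116 windows, and a NF-kappaB consensus in TAP1, B2M, HLA-B and HLA-C, against 9.96%. TAP1 and B2M each hold 2 overlapping copies of GAAANNGAAA, which 0.225% of all windows do. These 2 genes, which changed most and in opposite directions with si-RAB23-9, both carry the same pair of motifs. TAP2, not called, holds 1 copy of GAAANNGAAA, and PSMB8, called higher, holds none. The part of the motifs in the changes was not tested. The sequences of the 4 genes with the NF-kappaB consensus are given for that comparison, with both motifs in capitals where present and 5′ to 3′ on the gene's strand. The capitals cover the interferon motif first and the NF-kappaB match second in TAP1 and B2M. In HLA-B and HLA-C they cover the NF-kappaB match alone, as 1 longer run in HLA-B because matches overlap. Only exact matches to the patterns were searched for. Interferon response elements of another form, in HLA-B and HLA-C or elsewhere, would therefore be missed.
TAP1 (chr6:32853705-32853954, minus strand): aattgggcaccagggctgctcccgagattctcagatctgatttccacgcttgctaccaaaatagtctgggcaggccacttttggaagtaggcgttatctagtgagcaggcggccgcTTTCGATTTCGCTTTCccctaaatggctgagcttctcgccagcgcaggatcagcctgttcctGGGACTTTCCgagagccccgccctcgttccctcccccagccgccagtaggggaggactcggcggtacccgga
B2M (chr15:44711267-44711516, plus strand): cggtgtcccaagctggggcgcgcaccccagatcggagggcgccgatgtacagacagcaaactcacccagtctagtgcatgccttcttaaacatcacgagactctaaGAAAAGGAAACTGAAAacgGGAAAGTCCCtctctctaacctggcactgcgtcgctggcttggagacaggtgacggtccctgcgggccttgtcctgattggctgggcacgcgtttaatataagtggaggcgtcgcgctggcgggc
HLA-B (chr6:31357180-31357429, minus strand): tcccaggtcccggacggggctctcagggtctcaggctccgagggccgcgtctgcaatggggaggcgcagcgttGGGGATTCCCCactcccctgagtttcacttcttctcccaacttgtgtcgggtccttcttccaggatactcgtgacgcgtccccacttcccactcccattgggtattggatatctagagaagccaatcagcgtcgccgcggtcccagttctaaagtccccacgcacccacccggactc
HLA-C (chr6:31272093-31272342, minus strand): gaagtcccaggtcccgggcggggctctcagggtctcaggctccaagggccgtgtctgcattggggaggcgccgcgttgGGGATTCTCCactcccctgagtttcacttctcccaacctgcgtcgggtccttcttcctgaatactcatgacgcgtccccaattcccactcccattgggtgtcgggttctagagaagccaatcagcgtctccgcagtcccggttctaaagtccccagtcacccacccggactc

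Other elements were spread over the group. CCAAT was found in 6 of the 8 genes (32.0% of all windows), TGACG, the core of the cyclic AMP response element, in 6 (21.2%), and the STAT palindrome TTCNNNGAA in 2, TAP1 and PSMB8 (6.57%). In HLA-B and HLA-C the NF-kappaB match, TGACG and a series of CCAAT matches on either strand stand in the same order, with 1 more CCAAT match further upstream in HLA-C. The nearest RefSeq starts of TAP1 and PSMB9 lie 488 bases apart, and the 2 genes are transcribed away from each other there. TAP1 rose with si-RAB23-9, and PSMB9, on the other side of that shared stretch, was not called. The interferon and NF-kappaB matches of TAP1, between 134 and 63 bases before its start, lie within this stretch. They fall outside the 250 bases searched before PSMB9, so the absence of both motifs from PSMB9 holds for that window only.

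**Figure D5:**
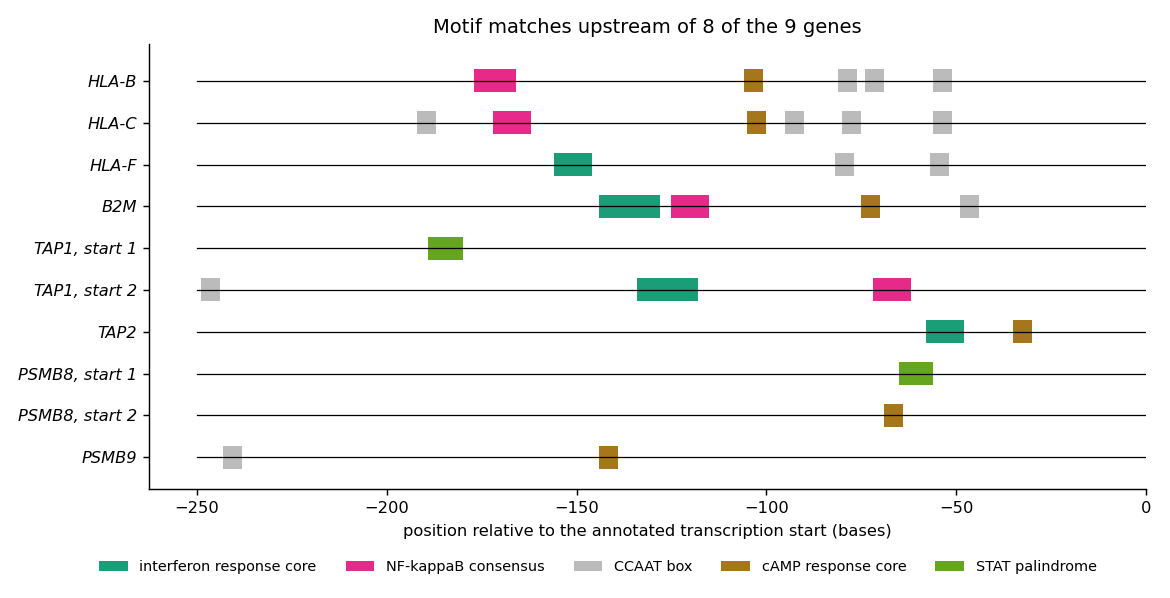
Positions of motif matches (coloured boxes) in the 250 bases before the annotated transcription starts of 8 of the 9 genes (rows; TAP1 and PSMB8 have 2 starts each), in bases from the start. The interferon response core and the NF-kappaB consensus stand together in TAP1 and B2M, and HLA-B and HLA-C share the NF-kappaB match and the order of the boxes after it.

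The 3′ untranslated region of B2M was also searched for 7-base words. The words had been picked in an earlier examination of these data, where their carriers were low with one siRNA, and counts of carriers are therefore descriptions. AAGTTAA occurs 3 times in the longest annotated 3′ untranslated region of B2M, at bases 343, 529 and 727 of 1285. Of its 8 annotated coding transcripts with such a region, 5 hold at least 1 copy. Shorter regions of B2M hold fewer copies, such as 1 in a region of 528 bases and 2 in one of 553 bases. The classes by copy number given below count the longest region of each gene. HLA-C has 1 copy in each of 3 transcripts, at base 985 of 1108 in the longest, and the other 7 genes have none. The sites are shown with the word in capitals and 11 bases on each side.
B2M, base 343: taagcgtgcatAAGTTAActtccaattta
B2M, base 529: ttttgttccacAAGTTAAataaatcataa
B2M, base 727: gatgctcaaagAAGTTAAatggcatagtt
HLA-C, base 985: cttccctaatgAAGTTAAgaacctgaata

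Across 10928 tested genes with an annotated 3′ untranslated region, those with 3 or more copies of AAGTTAA were called lower with si-RAB23-9 in 32.5% of 123 cases, those with 2 copies in 25.4% of 342, those with 1 copy in 14.5% of 1481 and those with none in 4.29% of 8982. With si-RAB23-1 the same classes were called lower in 8.13%, 9.36%, 8.10% and 8.76%. B2M fell with si-RAB23-9 and carries the word, whereas HLA-C carries it and rose. A second word, GACATAT, whose carriers were called lower in 25.4% of 897 cases with si-RAB23-1, occurs in none of the 9 genes. Longer regions hold more words of any kind, and the part of the word in the change of B2M was not tested.

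Over the 6 libraries 7 of the members were alike in pattern, and B2M and TAP2 stood apart. Among the 7 Pearson's r between pairs was 0.750 to 0.981, whereas with those 7 TAP2 had 0.166 to 0.578 and B2M -0.960 to -0.767. Each gene was scaled to mean 0 and SD 1, and the average of the 9 was highest in the si-RAB23-9 libraries (0.754 and 0.844), lowest in the si-RAB23-1 libraries (-0.777 and -0.709) and between them with si-NC (0.115 and -0.228). The r with this average was 0.975 for HLA-E, 0.866 for PSMB8 and 0.620 for TAP2, and -0.778 for B2M. These values describe 6 libraries of 1 line, each gene enters the average it is compared with, and the 3 groups alone can set such correlations. The 5 genes outside all lists most like the average, of 4499 whose group means spanned at least 0.3, were LIG1, BCL7B, AC007182.2, CEBPB and TNFSF9, with r of 0.992 to 0.997. LIG1 encodes a DNA ligase of replication, CEBPB a transcription factor of inflammatory and stress responses, and TNFSF9 the ligand of a T cell co-stimulatory receptor. TNFSF9 had 11.3 FPKM in both si-RAB23-9 libraries and 6.31 and 6.67 FPKM with si-RAB23-1, with 9.08 and 8.45 FPKM with si-NC.

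Several of the 9 gene models share sequence with others, which bears on how reads were assigned. The share of 50-base stretches of annotated transcripts that also occur in another gene was 31.3% for TAP2, 21.6% for HLA-F, 18.2% for PSMB8, 17.8% for HLA-B, 9.78% for TAP1 and 5.70% or less for HLA-C, HLA-E and PSMB9. Among the members, HLA-B and HLA-C share 35 exon bases on the same strand, and PSMB8 and PSMB9 share 139 on opposite strands. PSMB8-AS1, which lies across PSMB8, TAP1 and PSMB9, had 9 to 16 reads per library, few beside the 552 to 1107 of TAP1 and the 186 to 271 of PSMB8. Strandedness is not given in the sources used here, so reads of such overlapping pairs could belong to either. HLA-B and HLA-C are highly polymorphic, and how reads from alleles far from the reference were counted is not given in the sources used here.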

How the data were processed

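RNA from 6 libraries of KYSE30 cells was measured, 2 for each of si-RAB23-1, si-RAB23-9 and si-NC, grouped by their titles. The authors deposited FPKM per gene with gene coordinates and length, in 1 table. Per the submitters' processing notes, which state no roles, the build was hg19 and the tools were STAR 2.5.1b, RSEM 1.2.29, edgeR 3.8.5, Trimmomatic 0.36 and FastQC. The coordinates and lengths of the 9 genes equal those of GENCODE 29 on GRCh38, so the table's coordinates were read as that build. Each value was multiplied by its gene length and divided by a unit fitted for its library, starting from the smallest nonzero product. The results were whole numbers of reads within 0.01 (100% of values, largest deviation 0.000112). These recovered reads gave the depth and a count-based alternative. Reads shared by overlapping or near-identical genes could have been assigned to either.

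Values were taken as log2(FPKM + 1) and fitted with limma 3.58.1 in R 4.3.3, with 1 mean per group over all 6 libraries, which leaves 3 residual degrees of freedom, and eBayes with a mean-variance trend. P-values were adjusted by Benjamini-Hochberg over all 14352 genes that reached 1 FPKM in 2 or more libraries. Alternatives were another pseudocount, filters, scalings, voom on recovered reads, a fit to the 2 groups compared, a replicate block and leaving out each library. The fit was tested on simulated data. The members, lists and 7-base words were chosen with earlier results of these data known. Besides RAB23 and the 9 genes, the text names at most the 3 called genes of largest change per list and comparison, the other immunoproteasome genes, PSMB5, PSMB6, PSMB7, NLRC5, TAPBP and the 5 genes most like the members. Of the regulators of class I transcription, 1 gene is not reported here. Promoters are those of RefSeq, and 3′ untranslated regions are the longest of each gene in GENCODE 29.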

Additional observations from a re-analysis of the deposited data

Results flagged for a closer look

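The response to the 2 siRNAs differed for 7 of the 9 genes by the limma test of si-RAB23-9 minus si-RAB23-1 itself, 6 higher and 1 lower, beside 11.1% of all tested genes called higher and 9.89% called lower. The calls for HLA-C, HLA-E, PSMB8 and PSMB9 were lost without either si-RAB23-9 library. The differences on the log2(FPKM + 1) scale were 0.69 for TAP1, 0.49 for HLA-B, 0.37 for PSMB9, 0.29 for HLA-C, 0.28 for PSMB8, 0.19 for HLA-E and -0.44 for B2M. Both siRNAs lowered RAB23, which had 1.03 and 1.10 FPKM with si-RAB23-1, 1.18 and 1.27 FPKM with si-RAB23-9, and 3.27 and 3.33 FPKM with si-NC. No group had the 4 samples needed to look for a sample far from the others.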

How the results depend on the processing

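Of the called differences, those of TAP1 and B2M for si-RAB23-9 against si-NC and against si-RAB23-1, and that of HLA-B between the siRNAs, kept their direction and side of the threshold in all 15 alternatives. The others did not. Members called for si-RAB23-9 minus si-NC numbered 5, but 2 with no filter, 3 with quantile normalization, 2 with the replicate block and 2 to 4 with 1 library left out. For si-RAB23-9 minus si-RAB23-1 they numbered 7, but 3 with no filter and 3 to 7 with 1 library left out. For si-RAB23-1 minus si-NC they numbered 0, but 1 (HLA-B, lower) with a pseudocount of 0.1, a mean FPKM of at least 5, median-of-ratios scaling or quantile normalization, and 3 with voom at either library size. The cause was not tested. A fit without 1 library has fewer samples, and the lone library of its group is assumed to vary like the others.

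Calls over all genes came to 2209, 1902 and 3019 in the order si-RAB23-1, si-RAB23-9 and si-RAB23-9 minus si-RAB23-1. With no filter they were 1049, 983 and 1458, where more genes were tested. With voom they were 3800 and 3408 for the siRNAs against si-NC at library totals, and 3794 and 3407 at median-of-ratios sizes. In fits of only the 2 groups compared they were 1234 for si-RAB23-1 minus si-NC and 1919 for si-RAB23-9 minus si-RAB23-1. Leaving out 1 library gave 338 to 1820, 258 to 2075 and 705 to 2691.

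Without 1 library, 4 fold changes turned above 0, none of them called: TAP1 (range -0.103 to 0.00695, highest without si-RAB23-1 replicate 1), PSMB8 (-0.0716 to 0.0211, highest without si-NC replicate 2) and PSMB9 (-0.229 to 0.0400, highest without si-NC replicate 1) for si-RAB23-1 minus si-NC, and TAP2 (-0.130 to 0.0119, highest without si-NC replicate 1) for si-RAB23-9 minus si-NC. The ratio of inducible to constitutive subunits for si-RAB23-9 over si-NC was 1.09, but 1.35 for PSMB8 over PSMB5 and 1.30 for PSMB9 over PSMB6 singly, and 0.893 for PSMB10 over PSMB7. Over si-RAB23-1 it was 1.16, but 1.31, 1.38 and 0.995 for the same pairs. HLA-F, TAP2, PSMB8 and PSMB9 have a mean FPKM under 5 and no value under that filter. Replicate numbers are shared by the groups, but same-numbered libraries did not deviate together (r of -0.06, -0.02 and 0.06), so the pairing rests on the number alone. The least deep member, HLA-F, had 153 to 260 reads.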

Other observations

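Beyond antigen presentation by the 9 genes, class I-like chains and ligands of natural killer cell receptors were counted. Of 16 such genes 9 were tested. With si-RAB23-9 none was called by limma (2 at an unadjusted p under 0.05, and voom called 1 higher and 1 lower). With si-RAB23-1, MR1, which presents vitamin B metabolites to innate-like T cells, fell (-0.34, limma adjusted p = 0.0123), and PROCR, the endothelial protein C receptor, rose (0.28, 0.0365), beside 7.26% of all tested genes called lower and 8.13% called higher. Neither was called without either si-NC library, and PROCR was called only without si-RAB23-1 replicate 2 among the 6 fits that leave out 1 library. Between the siRNAs 2 of the 9 were called higher with si-RAB23-9 and 1 lower, beside 11.1% and 9.89% of all genes. They were MR1 (0.19, limma adjusted p = 0.0463), PROCR (-0.26, 0.0371) and MICB, of which MR1 was called in none of the 6 fits without 1 library and PROCR in 1. MICB, a stress-induced ligand of the receptor NKG2D, had 13.4 and 12.3 FPKM with si-RAB23-9 and 9.77 and 9.97 FPKM with si-RAB23-1 (0.35, limma adjusted p = 0.0159), a call lost without si-RAB23-1 replicate 1 or either si-RAB23-9 library. Of 13 class II genes 1 passed the filter, HLA-DOB, which modulates class II peptide loading. It had 1.68 and 1.60 FPKM with si-RAB23-9, 1.5 and 1.27 FPKM with si-RAB23-1, and 1.41 and 1.37 FPKM with si-NC, and was not called in any comparison by limma.

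Genes that lean towards interferon gamma were mostly too low to test, with 5 of 14 passing the filter. Of these 5, 2 were called lower with si-RAB23-1 and 1 higher with si-RAB23-9, beside 7.26% and 7.56% of all genes tested. SOCS1, an inhibitor of cytokine signalling, had 1.48 and 1.70 FPKM with si-RAB23-1, against 4.198 and 3.53 FPKM with si-NC (-0.91, limma adjusted p = 0.00496). WARS, a tryptophanyl-tRNA synthetase, also fell with si-RAB23-1 (-0.32, limma adjusted p = 0.0233). With si-RAB23-9, GBP3, a guanylate-binding protein gene, rose (0.33, limma adjusted p = 0.0397) and SOCS1 was not called, at 3.54 and 3.70 FPKM. Without either si-NC or either si-RAB23-9 library the call for GBP3 was lost, and that for WARS was kept only without si-RAB23-1 replicate 2, while SOCS1 was called lower with si-RAB23-1 in all 6 fits.

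The neighbours of the 8 genes on chromosome 6 were counted as well. Between 29722775 and 32859585, 80 other tested genes outside the lists were counted. With si-RAB23-9, 9 were called higher and 3 lower, beside 7.56% and 5.69% of all genes tested. With si-RAB23-1, 8 were called higher and 1 lower, beside 8.13% and 7.26%. The medians of the 80 were 0.01 with si-RAB23-9 and 0.04 with si-RAB23-1. Without either si-NC or either si-RAB23-9 library, the calls with si-RAB23-9 came to at most 1 in each direction, and without any 1 library the higher calls with si-RAB23-1 came to 1 to 4. For the 9 genes themselves the medians were 0.23 with si-RAB23-9 and -0.09 with si-RAB23-1. The neighbours include genes of many functions and are given as counts, without a test.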
